A study of Gallus gallus with 6 samples.

Results

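Leg muscle of the Xinghua breed of Gallus gallus was profiled by small RNA sequencing, and the miRNAs described here are the named ones with a number of 1000 or more. They were chosen by name alone: every entry called miR- with such a number, in either arm of its hairpin, leaving out miR-2954. The rule found 297 of the 846 entries, or 297 of the 534 that carry a chicken miRNA name, and these come from 254 hairpins. The other 237 named entries, let-7 included, and 312 entries with a provisional identifier serve as the background. Muscle was taken at embryonic day 11 (E11), at embryonic day 16 (E16) and on day 1 after hatching (P1). Each age had 2 libraries, all labelled female, and no genotype or treatment separated the groups. The labels do not say whether the libraries of an age came from separate birds, so p-values below measure the spread between libraries, which may be technical.

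A miRNA is cut from a hairpin transcript, first by the Microprocessor in the nucleus and then by Dicer in the cytoplasm. One strand of the resulting duplex, from the 5' arm (5p) or the 3' arm (3p), is loaded into an Argonaute protein and guides it to messenger RNAs through its seed, near the 5' end of the strand. miRNA numbers are given in order of discovery. Low numbers therefore hold the abundant families shared by many animals, whereas high numbers hold miRNAs found later by deep sequencing, many of them known from birds alone. A few in the list are shared more widely. miR-1306, for example, also exists in mammals, where its hairpin lies in the transcript of DGCR8, the RNA-binding subunit of the Microprocessor itself.

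The E11 libraries totalled 303556 and 589154 counts, the E16 libraries 1202481 and 948589, and the P1 libraries 2641042 and 2201359. Low counts were therefore least precise at E11. Markers of striated muscle, among them miR-1, miR-133, miR-206 and miR-499, were present at each age. They took 1.28% and 1.04% of counts in the E11 libraries, 7.37% and 7.92% at E16, then 12.1% and 15.4% at P1. By share of counts, miR-206 was highest in the E16 libraries and lower in P1 replicate 1 than in either E11 library. Markers of epithelium, at E11 chiefly miR-205 and the miR-200 family, took 1.18% and 1.21% at E11, 0.0447% and 0.0158% at E16, then 0.0997% and 0.00309% at P1. In P1 replicate 1 most of these counts were those of miR-203a, with 2253. By share of counts, miR-203a was higher there than in either E11 library. The others were higher in both E11 libraries than in any later one, save miR-429-5p, listed in E11 replicate 2 alone. Markers of cartilage, miR-140 and miR-455, took 0.525% and 0.329%, 0.148% and 0.137%, and 0.0872% and 0.0971% at E11, E16 and P1 in turn. Red blood cell markers (miR-144 and miR-451) stood apart in P1 replicate 1, with 3.05% of counts, against 0.622% in P1 replicate 2 and between 0.285% and 0.631% in the embryonic libraries. Those of leukocytes took 2.19% and 1.013% in the E11 libraries, 0.921% and 0.915% at E16, then 0.834% and 0.678% at P1, and neural markers between 0.00560% and 0.0115%. Most of the leukocyte counts were those of miR-146c-5p, with 6590 and 5819 counts at E11. By share of counts, miR-142-5p, miR-146b-5p and both arms of miR-146a were higher in both P1 libraries than in either E11 library. Both arms of miR-146c were lower, and the rest of that list overlapped, so the leukocyte sum follows miR-146c-5p. In bulk tissue, fewer cells of a type and less RNA per cell cannot be told apart.

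High-numbered miRNAs were 297 of 846 entries but a very small part of the RNA counted. In the E11 libraries they took 0.402% and 0.407% of all counts, at E16 0.350% and 0.369%, and 0.548% and 0.309% at P1. The E11 libraries both lay above the E16 libraries, whereas the P1 libraries lay on either side of all others. Mean shares were 0.405% ± 0.00327 (SD, n = 2) at E11, 0.359% ± 0.0132 at E16, and at P1 0.429% ± 0.169. The exact two-sided permutation test gave p = 0.333 for E16 against E11 and p = 1.0 for both comparisons with P1, and p = 1.0 for all 3 after Benjamini-Hochberg adjustment. With 2 libraries against 2 the smallest p this test allows is 0.333. Exact 95% Clopper-Pearson intervals, which cover counting error only, ran from 0.380% to 0.425% in the shallowest library and from 0.539% to 0.557% in P1 replicate 1.

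The height of P1 replicate 1 came from 1 member. miR-2188-5p held 54.0% of the members' counts there, against 21.0% in P1 replicate 2, 18.8% and 14.8% at E16, and 11.5% and 8.22% at E11. Without it, the other members took 0.365% ± 0.0122 (SD, n = 2) at E11, 0.299% ± 0.0211 at E16, and at P1 0.248% ± 0.00543, and the libraries of the 3 ages did not overlap. The permutation test then gave p = 0.333 for each pair of ages, again the smallest possible value. These are shares of raw totals, and the composition of the libraries changed with age. The TMM factors, which adjust a library total for composition, were 1.13 and 1.18 at E11, 1.04 and 1.02 at E16, then 0.879 and 0.804 at P1. Once divided by these factors, the shares of the E16 and P1 libraries overlap. The 10 most abundant members together held between 72.6% and 90.6% of the members' counts of a library.

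**Figure D1:**
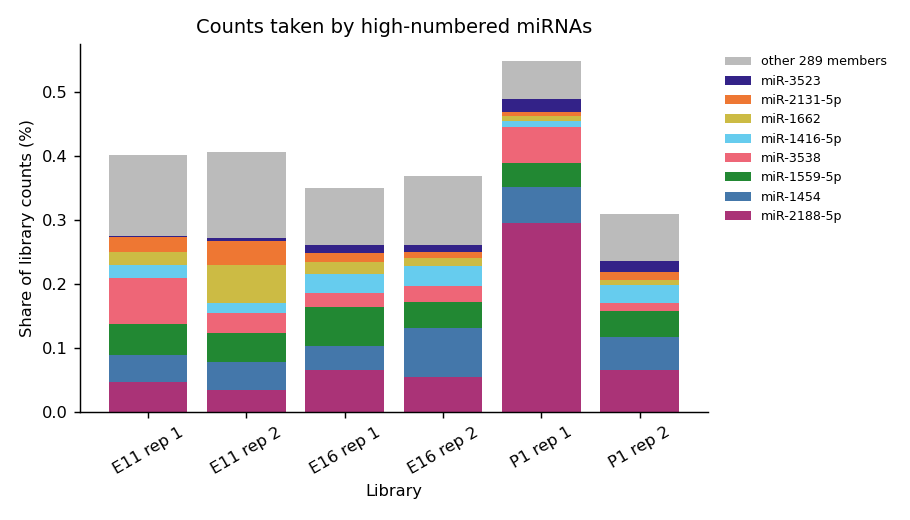
Share of library counts (%) taken by the high-numbered miRNAs in each of the 6 libraries, stacked by the 8 most abundant members and all others. The total runs from 0.309% to 0.548%, and miR-2188-5p makes up 0.296% of P1 replicate 1, against 0.0648% of P1 replicate 2.

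Most members were at the edge of detection. Of the 297, 56 (18.9%) were listed in all 6 libraries and 98 (33.0%) in 1 library alone. The corresponding shares were 69.2% and 8.02% among the other named entries and 31.1% and 22.4% among the provisional ones. The median member had 3 counts summed over the 6 libraries, against 289 for the other named entries, and 87 members had a single count in all. Only 25 members reached 100 counts, and 23 of these were listed in every library. Members that a library did not list were set to 0, which at a limit of 3 counts allows a level of up to 9.88 CPM (a counts-per-million level, before normalization) in E11 replicate 1 and up to 1.14 CPM in P1 replicate 1.

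More members were listed in the deeper libraries, but the order turned round at equal depth. The E11 libraries listed 115 and 147 members, the E16 libraries 152 and 147, and the P1 libraries 157 and 160. At the total of the shallowest library the number expected to be listed was 115 and 110.1 at E11, 82.8 and 87.7 at E16, then 66.7 and 65.6 at P1. At that common depth the libraries of the 3 ages did not overlap, with most members at E11. The number of all entries expected at that depth was 453 and 458 at E11, 391 and 399 at E16, then 361 and 356 at P1. Members made up 25.4% and 24.0% of them at E11, 21.2% and 22.0% at E16, then 18.5% and 18.5% at P1. Of the entries listed at full depth they were between 25.4% and 28.02% in every library. The sums of the epithelium and cartilage markers were also highest at E11, though miR-203a of the epithelium list was not. The part of these tissues in this was not tested. The leukocyte sum was highest there too through miR-146c-5p, while other miRNAs of that list went the other way. Members listed at a single age numbered 32 at E11, 37 at E16 and 48 at P1. Of these, 4, 5 and 10 were listed in both libraries of their age, with at most 3, 4 and 6 counts summed over the pair. These numbers were taken at full depth, which was greatest at P1. The share of all entries listed at a single age is not given beside them, so they show no trend of the members with age.

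**Figure D2:**
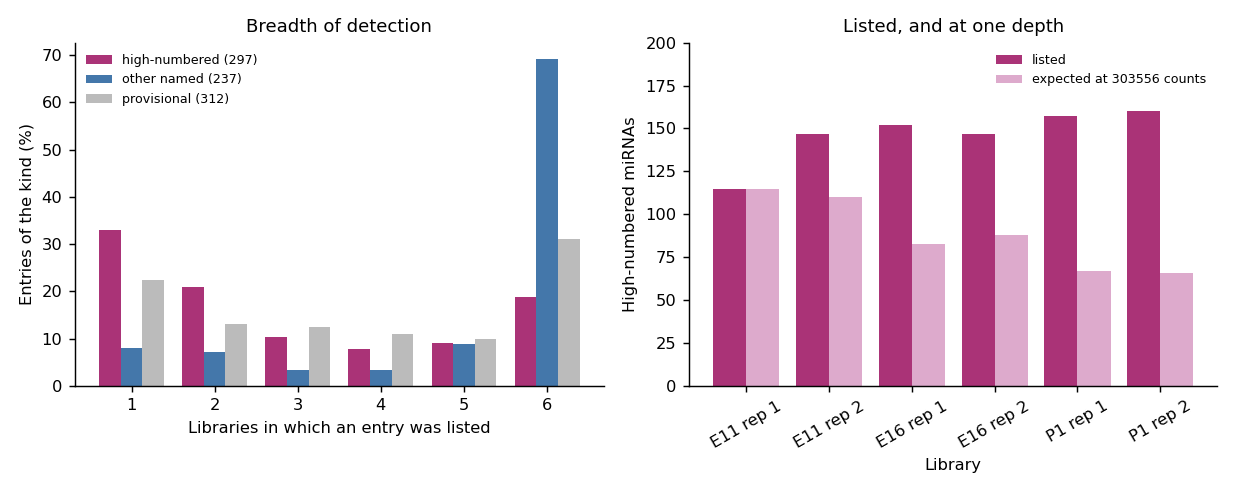
Left, percentage of high-numbered, other named and provisional entries listed in 1 to 6 libraries. Right, number of high-numbered miRNAs listed per library and the number expected at 303556 counts, the total of the shallowest library. The listed number runs from 115 to 160, and the expected number from 115 at E11 to 65.6 at P1.

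The numbering fell into blocks that differed in how well they were detected. Numbers 1306 to 1814 held 161 members, 33 of them listed in all 6 libraries, and 43.8% of the members' summed counts. Numbers 2127 to 2188 held only 7 members, of which 4 were listed throughout, but 37.7% of the counts. Between 3523 and 3607 there were 19 members, 9 of them listed throughout, with 14.0% of the counts. The 84 members numbered 6516 to 6702 and the 25 numbered 7438 to 7482 held 2.60% and 1.98% of the counts, with 8 and 2 listed throughout. One more member, miR-3064-3p, had a single count. The block of 84 took 0.0224% and 0.0238% of library counts at E11, 0.0129% and 0.0163% at E16, then 0.00791% and 0.00554% at P1, without overlap between ages. No other block of several members separated all 3 ages. Numbers 1306 to 1814 averaged 0.226%, 0.216% and 0.158% of library counts over the 3 ages in turn, and numbers 7438 to 7482 0.0151%, 0.0110% and 0.00606%. Numbers 2127 to 2188, which hold miR-2188, averaged 0.0733%, 0.0766% and 0.195%, and numbers 3523 to 3607 averaged 0.0671%, 0.0414% and 0.0628%.

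Levels below are TMM-normalized CPM, in which the library total is adjusted for the composition of the library. The most abundant member was miR-2188-5p, whose hairpin lies in ANK1 in the RefSeq annotation of chicken. ANK1 encodes ankyrin-1, which ties the spectrin skeleton to the membrane of red blood cells and is also made in striated muscle. The 5p arm had 409 and 284 CPM at E11, 632 and 534 at E16, then 3369 and 807 at P1. At this scaling each P1 library lay above each E16 library, and these above the E11 libraries. The 3p arm had 2.92 and 11.5 CPM at E11, 19.98 and 17.6 at E16, then 54.7 and 27.1 at P1, in the same order of ages. By share of raw totals P1 and E16 overlapped for the 5p arm, with 648 CPM in P1 replicate 2 and 658 in E16 replicate 1. P1 against E11, miR-2188-5p rose 6.03-fold (log2 fold change 2.59, SE 0.70, edgeR quasi-likelihood Benjamini-Hochberg adjusted p = 0.0337) and miR-2188-3p rose 5.04-fold (2.33, SE 0.71, adjusted p = 0.0443).

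The size of that rise rested on P1 replicate 1, the library with the highest red blood cell markers. Without it, miR-2188-5p had a log2 fold change of 1.16 (edgeR adjusted p = 0.171) and miR-2188-3p 1.71 (adjusted p = 0.209). Without P1 replicate 2, miR-2188-5p had 3.32 (adjusted p = 0.0140), and without E11 replicate 2 miR-2188-3p had 3.77 (adjusted p = 0.0684). The call of miR-2188-5p was also lost without E11 replicate 1, E11 replicate 2, E16 replicate 1 or E16 replicate 2 (adjusted p between 0.102 and 0.170), and that of miR-2188-3p without any 1 library.

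Among 198 other named entries tested, those whose level over the 6 libraries was most like that of miR-2188-5p were miR-451 (Pearson r = 0.96 of log2 CPM, n = 6), miR-144-5p (0.95) and miR-142-5p (0.92), and miR-144-3p came next (0.90). miR-451 and miR-144 are cut from 1 cluster that is highly active in red blood cell precursors, and miR-142 is a miRNA of blood cells in general. Next in likeness were miR-193b-3p (0.89), miR-146a-5p, miR-24-3p and miR-30e-5p (each 0.87), then miR-499-3p of the muscle list (0.85). These points share libraries, ages and scaling, and the correlation is a description. miR-451 had 2643 and 2829 CPM at E11, 5130.2 and 2387 at E16, then 32080.4 and 6939 at P1. The summed CPM of the red blood cell list was between 5.24 and 11.8 times that of miR-2188-5p in every library. At P1 it was 10.3 and 9.59 times. In E16 replicate 2 the list had 2796 CPM, below the 3073 and 3358 of the E11 libraries, while miR-2188-5p was above both. The part of red blood cells in the level of miR-2188 was not tested.

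**Figure D3:**
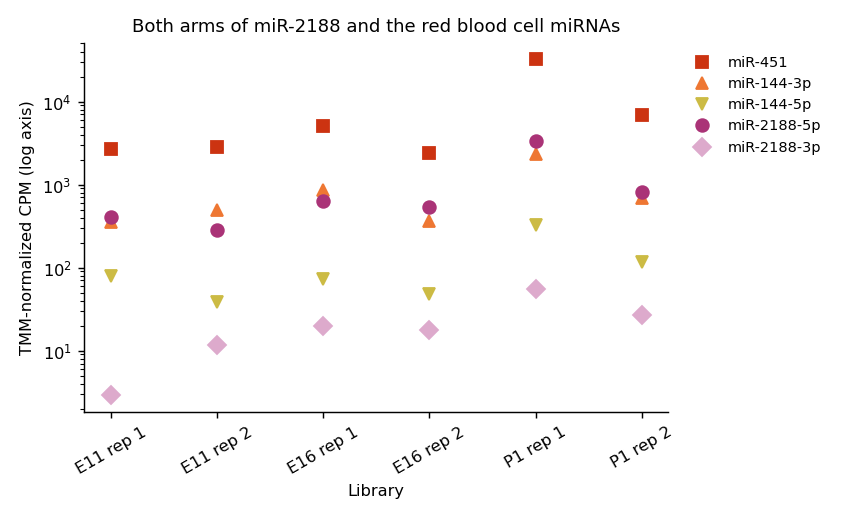
TMM-normalized CPM (log axis) of both arms of miR-2188 and of the red blood cell miRNAs miR-451 and miR-144 in each library. All 5 are highest in P1 replicate 1, where miR-2188-5p reaches 3369 CPM and miR-451 32080.4 CPM.

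Behind miR-2188-5p came members that changed little or whose libraries disagreed. miR-1454 had 379.7 and 373 CPM at E11, 357 and 746 at E16, then 637 and 641 at P1, a difference of P1 over E11 of 0.76 on the log2 scale (SE 0.50, edgeR adjusted p = 0.299). Its hairpin overlaps RPS12, a gene for a protein of the small ribosomal subunit. miR-1559-5p, which overlaps the integrin gene ITGAV, was the most even of the abundant members, with 423 and 386 CPM at E11, 591 and 409.9 at E16, then 432 and 507 at P1. The corresponding log2 difference was 0.21 (SE 0.45, adjusted p = 0.761), and -0.25 when scaled by library totals alone.

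miR-3538 is annotated in RefSeq under the symbol SNORD83A, a small nucleolar RNA that lies in the ribosomal protein gene RPL3. Small nucleolar RNAs of this box C/D kind guide the methylation of ribosomal RNA. miR-3538 had 637 and 274 CPM at E11, 209 and 234 at E16, then 633 and 163 at P1. Replicate 1 was the higher library at E11 and at P1, and the ages overlapped (log2 fold change of P1 over E11 -0.19, SE 0.74, adjusted p = 0.873). miR-1416-5p, in MAMDC2, had 187 and 125 CPM at E11, 277 and 308 at E16, then 105 and 354 at P1, where its libraries lay on either side of all others (0.56, SE 0.68, adjusted p = 0.579).

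miR-3523 was the abundant member with the steadiest increase. Its hairpin overlaps DUSP1, the gene for a phosphatase that switches off MAP kinases. It had 17.5 and 44.7 CPM at E11, 118 and 106 at E16, then 237 and 201 at P1, and no age overlapped another. The rise was 6.83-fold at P1 against E11 (log2 fold change 2.77, SE 0.62, edgeR adjusted p = 0.0241). For E16 against E11 the log2 fold change was 1.81 (SE 0.61, adjusted p = 0.120), which passed in DESeq2 alone. The P1 call was kept without E11 replicate 2 (3.61, adjusted p = 0.0189), and was lost without any 1 of the other 5 libraries, with adjusted p between 0.0521 and 0.0644. The E11 libraries held only 6 and 31 counts of it.

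The remaining abundant members leaned downward or were uneven. miR-1662, in the gene of the peptide hormone receptor VIPR1, had 187 and 512 CPM at E11, 182 and 118 at E16, then 95.7 and 97.2 at P1 (log2 fold change of P1 over E11 -1.86, SE 0.65, adjusted p = 0.0683). miR-2131-5p, in the cap-binding protein gene NCBP1, had 199 and 314 CPM at E11, 140.7 and 94.0 at E16, then 69.4 and 158 at P1 (-1.18, SE 0.63, adjusted p = 0.194). In both, each E11 library lay above all later ones. miR-7475-5p, in the centrosome gene CEP63, had E16 libraries far apart, with 20.8 and 161 CPM, and had 81.8 and 119.7 at E11 and 40.1 and 70.7 at P1 (-0.87, SE 0.90, adjusted p = 0.522). miR-1456-5p, in LYRM7, had 67.2 and 75.0 CPM at E11, 92.7 and 103 at E16, then 32.3 and 87.0 at P1 (-0.26, SE 0.60, adjusted p = 0.772).

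**Figure D4:**
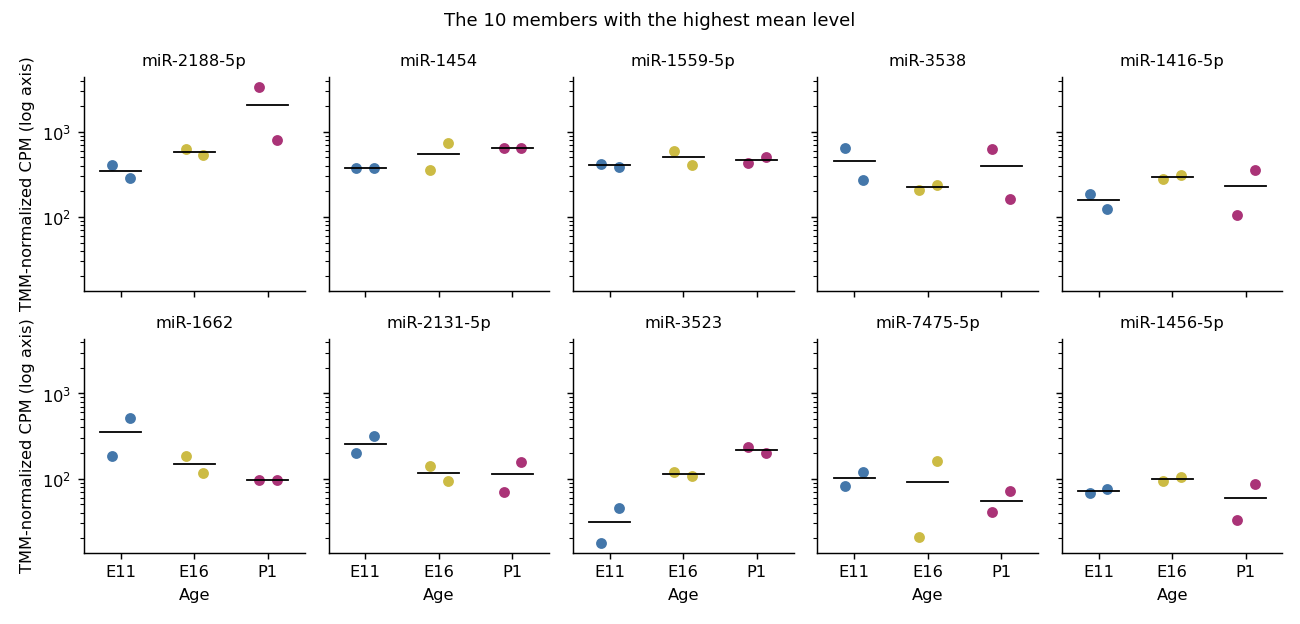
TMM-normalized CPM (log axis) of the 10 most abundant high-numbered miRNAs by age. Points are the 2 libraries of an age and bars their mean. miR-3523 separates all 3 ages, from 17.5 CPM in 1 E11 library to 237 CPM in 1 P1 library, while miR-2188-5p, miR-3538 and miR-1416-5p have widely spaced P1 libraries.

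E16 against E11 set 2 stages of embryonic leg muscle side by side. Only 41 of the 297 passed the filter for testing, in a fit over all 289 entries that did. The filter asks for a CPM level in 2 libraries, so fewer counts suffice in the shallow E11 libraries. miR-1467-5p, for example, was tested with 3 and 6 counts at E11. A miRNA can pass that filter by being high at 1 age alone, so counts over tested members describe them alone. At E16 3 members fell and 0 rose (edgeR adjusted p under 0.05), where over all 289 entries tested 4.15% fell and 2.42% rose. The median log2 fold change was -0.05 for tested members and -0.03 for all tested entries. At an unadjusted p under 0.05 there were 6 lower and 2 higher members of 41, beside 14.9% lower and 9.34% higher of all entries tested.

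miR-1625-5p, miR-1677-3p and miR-3528 were the members that fell, all of low count, and each passed the filter through its E11 libraries alone. miR-3528, whose hairpin overlaps the mitochondrial ribosomal protein gene MRPS2, had 5 and 16 counts at E11, 1 and 0 at E16, then 5 and 2 at P1. Scaled for library size, the summed E11 counts were 45.0 times those of E16 (exact 95% interval 7.24 to 1861, counting error only; edgeR adjusted p = 0.0213). miR-1677-3p, in the ephrin receptor gene EPHA7, had 5 and 15 counts at E11, 1 and 2 at E16, then 2 and 4 at P1, with a ratio of E11 over E16 of 14.3 (4.24 to 75.1; adjusted p = 0.0322). miR-1625-5p, in TTC28, had 13 and 14 counts at E11, 1 and 4 at E16, then 7 and 4 at P1, and fell by 3.54 on the log2 scale at E16 (SE 0.78, adjusted p = 0.0392). In CPM, each E11 library lay above each later library for all 3.

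These calls were lost in each fit without 1 library that tested them, with adjusted p between 0.0647 and 0.324. The log2 fold change of miR-3528 was -7.55 without E16 replicate 1 and -4.24 without E16 replicate 2. That of miR-1677-3p was -3.04 without E16 replicate 1. That of miR-1625-5p was -2.94 without E11 replicate 1, -2.71 without E16 replicate 1 and -4.85 without E16 replicate 2. Requiring 10 counts in 2 libraries left no member called.

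P1 against E16 spanned hatching. No member passed, and 0% of all entries tested passed in either direction in edgeR, where 1 member was higher and 5 were lower at an unadjusted p under 0.05. Of all entries tested 8.65% were higher and 4.15% lower at that p, the opposite balance, and the difference in balance was not tested. DESeq2 called 0 members. The 3 smallest p-values belonged to members with less at P1. miR-1737 had 11.7 and 5.77 CPM at E11, 26.4 and 28.9 at E16, then 8.19 and 8.48 at P1, so that E16 stood above both other ages (log2 fold change of P1 over E16 -1.72, SE 0.49, adjusted p = 0.329). miR-1736-3p, in the mitochondrial tRNA synthetase gene CARS2, showed the same shape with 2.92 and 8.65, 23.2 and 11.4, and 5.17 and 5.09 CPM at the 3 ages (-1.74, SE 0.59, adjusted p = 0.343). miR-6631-5p, in the kinase gene ITPKC, had 26.3 and 38.9 CPM at E11, 11.19 and 29.9 at E16, then 6.04 and 0.565 at P1 (-2.52, SE 0.92, adjusted p = 0.343).

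The single member with an unadjusted p under 0.05 in the other direction was miR-2188-5p, with a log2 fold change of P1 over E16 of 1.84 (SE 0.68, edgeR adjusted p = 0.343). Without a filter on low counts it passed (1.95, adjusted p = 0.0293), and without P1 replicate 1 it had 0.39 (adjusted p = 0.944).

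P1 against E11 covered the whole span and gave the largest number of calls. Of 41 tested members 8 fell and 3 rose, where over all 289 entries tested 16.3% fell and 14.2% rose. Among those that fell, miR-1720-3p, miR-1677-3p, miR-3528, miR-1625-5p, miR-1467-5p and miR-1563 passed the filter through their E11 libraries alone. Being high at E11, the earlier age compared, was thus a condition for testing them. The median log2 fold change was -0.31 for tested members and -0.15 for all tested entries. Scaling by library totals alone moved the median of all entries to -0.62 and gave 10 lower and 1 higher among the tested members. The share of all entries called at that scaling is not given. Whether the members moved down more than other entries was thus not tested. The 3 that rose were miR-3523 and both arms of miR-2188, described above, and under library totals miR-3523 alone kept its call, while miR-1662 and miR-6694-3p passed as lower.

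The 4 largest falls belonged to members that passed the filter through their E11 libraries alone. Levels below the filter at E16 and P1 were thus part of how they came to be tested, and say nothing further on timing. miR-1720-3p had 8 and 10 counts at E11, 3 and 5 at E16, then 3 and 1 at P1, which is 23.4 and 14.4, 2.40 and 5.16, and 1.29 and 0.565 CPM. It fell by 4.11 on the log2 scale at P1 (SE 0.69, edgeR adjusted p = 0.00881). In RefSeq its hairpin lies within 10 kb of that of miR-3529, a member that overlaps a hairpin of miR-7 and was too low to be tested, with 14.6 and 5.77 CPM at E11, 5.59 and 6.20 at E16, then 2.16 and 3.39 at P1. Reads from overlapping hairpins cannot be told apart without strand. miR-1677-3p fell by 3.54 (SE 0.66, adjusted p = 0.0132), miR-3528 by 3.45 (SE 0.67, adjusted p = 0.0147) and miR-1625-5p by 3.36 (SE 0.71, adjusted p = 0.0207).

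Other members fell at P1 by less or with libraries further apart. miR-6631-5p fell by 3.23 (SE 0.94, edgeR adjusted p = 0.0419), with 14 counts and 1 count in the P1 libraries against 9 and 27 in the shallower E11 libraries. miR-1552-5p, in the kinase gene MAP4K4, had 64.3 and 109.6 CPM at E11, 46.4 and 50.6 at E16, then 16.8 and 31.1 at P1, without overlap between ages, and fell by 1.87 (SE 0.54, adjusted p = 0.0418). miR-1467-5p, in the heparan sulphate synthesis gene EXT1, had 8.76 and 8.65, 5.59 and 5.16, and 0.862 and 2.83 CPM and fell by 2.23 (SE 0.68, adjusted p = 0.0443). miR-1563 fell by 1.80 (SE 0.54, adjusted p = 0.0443), with 14.6 and 10.1, 3.20 and 2.07, and 3.88 and 2.83 CPM. It is annotated as SNORD69, in the nucleolar protein gene GNL3.

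Of these 8 falls, those of miR-1720-3p, miR-1677-3p, miR-3528 and miR-1625-5p kept their call when the fit held only the 4 libraries of the ages compared. Those of miR-6631-5p, miR-1552-5p, miR-1467-5p and miR-1563 did not, nor did the 3 rises. Leaving out 1 library ended most calls. miR-1720-3p lost its call without E11 replicate 1 (edgeR adjusted p = 0.0502), E16 replicate 2 (0.0587), P1 replicate 1 (log2 fold change -4.80, adjusted p = 0.0801) or P1 replicate 2 (0.102). miR-1625-5p kept its call without E11 replicate 2 alone (adjusted p = 0.0434). The other 6 were called in none of these fits that tested them, with adjusted p between 0.0502 and 0.308. The log2 fold change of miR-1677-3p moved to -4.19 without P1 replicate 2 and -3.01 without P1 replicate 1, and that of miR-6631-5p to -5.63 without P1 replicate 1 and -2.37 without P1 replicate 2.

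**Figure D5:**
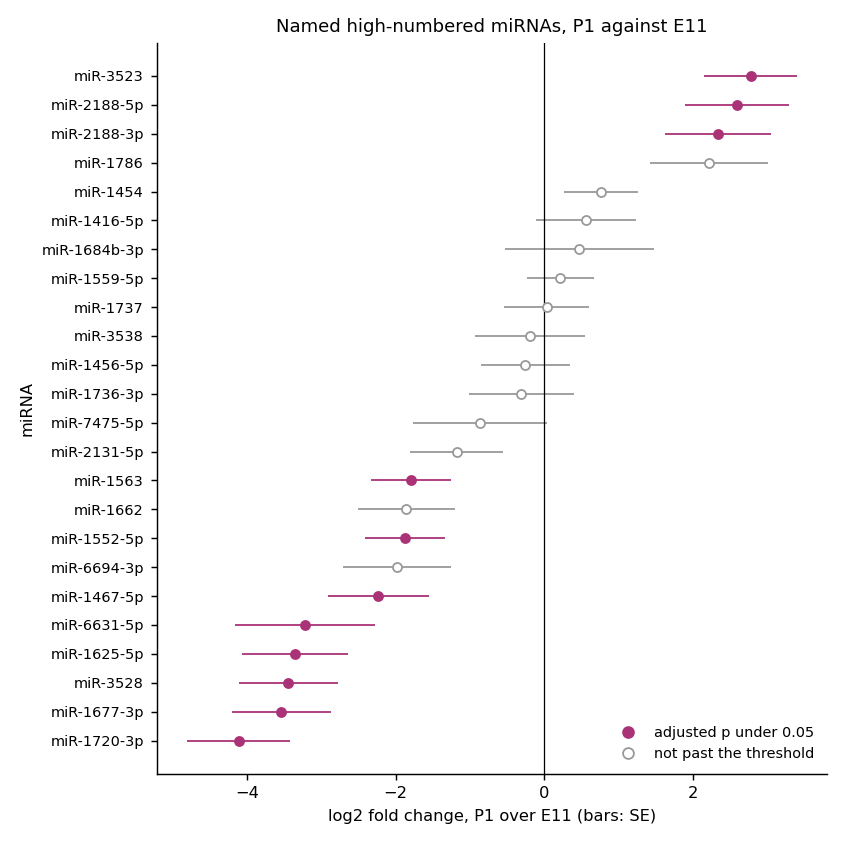
log2 fold change of P1 over E11 with its SE (edgeR, 2 libraries per age) for the 24 high-numbered miRNAs chosen by the naming rule. Filled points passed an adjusted p of 0.05: 3 rose, up to 2.77 for miR-3523, and 8 fell, down to -4.11 for miR-1720-3p.

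By level alone, 18 of the 41 tested members had both libraries of 1 age beyond all others with means at least 2-fold apart, as had 40.1% of all entries tested. E11 was the high age for 7 of the 41 and the low age for 3, beside 16.6% and 11.1% of all entries tested. Among those high at E11, miR-1563, miR-1625-5p, miR-1677-3p, miR-1720-3p and miR-3528 passed the filter through their E11 libraries alone. E16 was high for 3 and low for 1, beside 1.73% and 1.04% of all entries. P1 was high for 2 and low for 5, beside 10.4% and 6.57%. With 3 members counted at 2 ages, these are counts of a few miRNAs each. Those not yet described were miR-1684b-3p, miR-1786 and miR-6694-3p. miR-1684b-3p was high at E16, with 0 and 18.7 CPM at E11, 48.8 and 20.7 at E16, then 10.8 and 19.8 at P1. By share of raw totals E11 replicate 2 had 22.1 CPM of it and E16 replicate 2 had 21.1, so these ages overlapped. P1 and E16 overlapped likewise by raw totals for miR-2188-5p, counted here as high at P1. miR-1786 was low at E11, with 2.92 and 4.33 CPM there, 12.8 and 11.4 at E16, then 9.05 and 27.1 at P1 (log2 fold change of P1 over E11 2.21, SE 0.80, edgeR adjusted p = 0.0725). miR-6694-3p was low at P1, with 26.3 and 7.21 CPM at E11, 7.99 and 9.29 at E16, then 4.74 and 2.83 at P1 (-1.98, SE 0.72, adjusted p = 0.0744). The 17 tested members not named by the rule had log2 fold changes between -1.44 and 1.87 for this comparison, with no adjusted p under 0.228.

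Both arms were listed for 43 of the 254 hairpins, and 34 of these had at least 10 counts. The 5p arm was the higher in every library with a count for 13 of the 34, the 3p arm for 9, and 12 were mixed. miR-2188 gave between 96.1% and 99.3% of its counts from the 5p arm in each library, and miR-1416 between 85.3% and 94.99%. Summed over libraries, miR-1559 gave 99.8% from the 5p arm (exact 95% interval 99.5% to 99.9%). At the other end, miR-3607 gave 1.29% (0.474% to 2.78%) from its 5p arm. In human the hairpin of miR-3607 overlaps a small nucleolar RNA. Its 3p arm had 38.0 and 36.04 CPM at E11, 19.2 and 57.8 at E16, then 37.1 and 145 at P1. miR-1306, the miRNA of the DGCR8 transcript, was the most balanced of the better counted hairpins, with 112 counts from 5p and 106 from 3p (51.4%, 44.5% to 58.2%). Per library its 5p share ran from 42.5% to 61.7%.

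RefSeq held 235 of the 254 hairpin names. Of those, 192 (81.7%) overlapped a protein-coding gene on either strand, against 597 of all 799 chicken miRNA hairpins in the table (74.7%). The hosts of the better counted members were of mixed kinds, among them ribosomal, membrane, signalling and RNA-processing genes. RefSeq gave 4 hairpins the symbol of a small nucleolar RNA: miR-3538, miR-1563, miR-3535 and miR-1434, each within a gene for translation or the nucleolus (RPL3, GNL3, NCL and EEF2). Of these miR-3538 had 2653 counts in all, and the others between 32 and 35. No other entry had counts like those of any of the 25 members with at least 100 counts, where like means within 3 counts or 10% in every library.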

How the data were processed

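Small RNA libraries of leg muscle from 3 ages were analysed, 2 libraries per age. The authors deposited 1 table per library with whole numbers, taken here as read counts for each miRNA. The file headers call the column FPKM, which the values go against: all are whole, the lowest is 1, and totals differ between libraries. A miRNA that a file does not list was given 0. The submitters' processing notes name Trim Galore, Bowtie, TopHat, Cufflinks and the build galGal4, without their roles. Which program counted the reads was not given in the sources used here. Per the labels' protocols RNA was extracted with Trizol. The labels also mention RNase R treatment and removal of ribosomal RNA, with no word on what that meant for these libraries.

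The whole table was fitted in edgeR 4.0.16 (R 4.3.3) after filterByExpr (minimum count 10, minimum total 15), with TMM scaling, 1 coefficient per age and a two-sided quasi-likelihood F-test. To the 3 residual degrees of freedom of an entry the test adds others borrowed across entries. Its p-values thus rest in part on a spread pooled over entries. The filter left 289 entries, 41 of them members, and 256 members untested. The minimum count was applied as a CPM level at the median depth, so fewer counts sufficed in the shallow E11 libraries. P-values were adjusted by Benjamini-Hochberg over all entries tested, with a threshold of 0.05. "Rose" and "fell" as calls refer to that threshold. The SE of an edgeR log2 fold change was derived from the test, as its absolute value divided by the square root of F. The fit was tested on simulated data first. Intervals and the limit of 3 counts cover counting error only, since reads without molecular identifiers are not independent molecules. The number expected at the shallowest total is the exact hypergeometric expectation.

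Members named in full were the 10 with the highest mean CPM, all called members, the 3 with the smallest p in each comparison, and tested members with both libraries of 1 age beyond all others and means at least 2-fold apart, 24 in all. miR-1306, miR-1744-3p, miR-1773, miR-3529, miR-3607, miR-6542 and miR-7474 are described besides, chosen after their values were seen. The members and the marker lists were chosen with earlier results of these data known. Host genes come from RefSeq's GRCg7b annotation by overlap, without regard to strand. That is another build than the authors', so no positions are given. Alternatives used limma 3.58.1 and DESeq2 1.42.0, other scalings and filters, named entries alone, a replicate block and fits without 1 library.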

Additional observations from a re-analysis of the deposited data

How the results depend on the processing

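No named log2 fold change reversed a call under any alternative run. Over the named members' fold changes, called or not, 401 alternatives stayed the same, 103 lost a call, 7 gained one and 19 moved by more than the SE without a call. Uncalled fold changes counted as the same when they stayed uncalled within the SE, and only called ones could lose a call. The 401 is thus no measure of how often calls held. Outside the fits without 1 library, losses at P1 against E11 ran from 0 of 8 alternatives for miR-1720-3p to 6 of 8 for miR-1563. The number of members called at E16 against E11, 3 in the fit described, was 0 in each fit without 1 library and 0 when 10 counts in 2 libraries were required, where the filter leaves out 2 of the 3. It was 0 for P1 against E16 in every setting but 1, which tested all 297 members without a filter and called 1. For P1 against E11, with 11 called, 5 were called when 10 counts in 2 libraries were required and 4 with only the 2 ages compared. Fewer than that were called in every fit without 1 library. The share of all entries called is not given for these alternatives or for the block fit below. Whether members lost calls more often than other entries was not tested. When a library is left out, the lone library of its age is assumed to vary like the others, which also lowers what can be called.

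With the replicate number as a block, 4 members were called at P1 against E11. Whether the number stands for a shared source or batch is not given. Libraries with the same number did not deviate together for E16 and E11 (r = -0.02) or P1 and E11 (r = -0.03), but r was 0.33 for P1 and E16, across entries. The share of the members was 0.685% at E11, 0.575% at E16 and 0.648% at P1 when named entries alone formed the total. It was 0.365%, 0.299% and 0.248% without miR-2188-5p, and 0.400% at E11 without miR-3607. With 2 libraries per age, leaving out 1 only gives back the share of the other, so it is no further check. Those shares were 0.402% and 0.407% at E11, 0.350% and 0.369% at E16, then 0.309% and 0.548% at P1. The mean number of members detected was 131.0 at E11, 149.5 at E16 and 158.5 at P1 (115 to 147, 147 to 152 and 157 to 160 in single libraries). It was 72.5, 88.0 and 100 with at least 2 counts, 38.5, 44.5 and 54.5 with at least 5, 20.5, 31.0 and 39.0 with at least 10, and 112.5, 85.3 and 66.2 at the shallowest total, the one setting in which the order of ages turned. The causes were not tested. Depth limits the E11 values most.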

Other observations

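Besides miR-2188 in ANK1, some scarce members overlap genes known from muscle in RefSeq, and the examples here were picked by hand after the hosts were seen. miR-7474 overlaps TTN, the gene of titin, the giant spring protein of the sarcomere. Its 3p arm had 5.84 and 5.77 CPM at E11, 1.60 and 8.26 at E16, then 7.33 and 13.6 at P1, and was too low to be tested. miR-6542 overlaps SRF, the gene of a transcription factor of muscle and growth genes, and its 3p arm stayed between 6.78 and 10.1 CPM in all 6 libraries. miR-6694, described above, overlaps ADAM12, whose product takes part in myoblast fusion. miR-1773 lies within 10 kb of MIR1-1 and MIR133A2, a cluster that gives the main muscle miRNAs. It had 13 counts of its 5p arm and 2 of its 3p arm in all libraries together, while miR-133a-3p, of that family, had 158497 and 246285 counts in the P1 libraries alone.

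miR-1744-3p was listed in replicate 1 of every age and in replicate 2 of none. It had 3, 27 and 55 counts in replicate 1 of E11, E16 and P1, or 8.76, 21.6 and 23.7 CPM, and 0 in each replicate 2. At the limit of 3 counts those zeros allow up to 5.09, 3.16 and 1.36 CPM before normalization. It was the only one of 846 entries listed in all replicate 1 libraries and no replicate 2 library. For the opposite split there were 3 entries, none with 3 or more counts at each age. The hairpin overlaps SEMA6D, a gene of the semaphorin family. The cause was not tested.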
